A study of Mus musculus with 2 samples.

Results

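The genes described here are 42 genes of the cell division cycle, followed in leukocytes from the brains of twitcher (twi) mice and WT littermates. They were chosen by symbol from a gene list of 27998 entries, and all 42 were present. Of these, 17 were read as S phase genes, the genes of DNA synthesis, and 23 as mitosis genes, the genes of G2 and mitosis. The remaining 2, Stmn1 and Hmgb2, were kept outside both lists and took no part in calling a cell as cycling. Every member was detected, from 78 unique molecular identifiers (UMIs, each a tag for 1 captured transcript) over both libraries for Ccne2 to 10195 for Hmgb2.

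A dividing cell copies its DNA in S phase and parts the copies in mitosis. In S phase the Mcm helicase unwinds the DNA, Pcna clamps the polymerases to it, and ribonucleotide reductase, thymidylate synthase and thymidine kinase supply the nucleotides. Cdk1 with its B-type cyclins then drives entry into mitosis, kinesins and the chromosomal passenger complex arrange the chromosomes on the spindle, and the anaphase promoting complex ends the process by marking the cyclins for destruction. Most leukocytes in the circulation are at rest: T cells divide after meeting antigen, B lineage and myeloid cells divide as precursors, and the mature neutrophil no longer divides.

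The study compared CD45+ cells, leukocytes in the broad sense, that were sorted by flow cytometry from hemi-brains at postnatal day 21 and profiled by droplet single-cell RNA sequencing. All mice were C57Bl/6 and untreated. The WT mice were galc+/+, and the twi mice were galc-/-, which lack the lysosomal enzyme galactosylceramidase and serve as a model of Krabbe disease. Each genotype was 1 library of cells pooled from several mice, so values of single mice could not be separated and no test between genotypes was possible. The intervals given are exact 95% intervals and cover counting error only.

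The WT library held 1278 barcodes with 3749714 UMIs and the twi library 1220 barcodes with 4807539 UMIs, and no barcode was shared. After barcodes with more than 15% mitochondrial UMIs were left out, 1271 WT and 1207 twi cells remained, with a median of 2222 and 3182 UMIs per cell, so the twi cells were the more deeply read. Galc itself, the gene altered in twi mice, was read from 4 WT and 8 twi UMIs, too few to check the genotype labels. In WT, 38.3% of cells carried Y-linked transcripts without Xist and 0% carried Xist without Y-linked transcripts, against 17.2% and 45.4% in twi, so the pools differed in the sex of their mice. Ptprc, which encodes CD45, was detected in 84.8% of WT and 88.1% of twi CD8 T cells but in 45.6% and 54.9% of B cells.

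S phase and mitosis genes are known to be switched on through different promoter elements: E2F factors act on many of the first, and complexes that bind the cell cycle genes homology region (CHR) act on many of the second, often beside CCAAT boxes. Promoter windows of 300 bases, 250 before and 50 after the start, were matched by symbol for 34 of the 42 genes (RefSeq, mouse build GRCm38.p6). The letters TTTGAA (CHR), CCAAT, and TTTCCCGC, TTTGGCGC, TTCCCGCC or TTGGCGCC (E2F) were searched on both strands. The E2F letters overlap one another, and the last of them on the other strand can share its closing bases with CCAAT, as it does in Ccnb1. CHR letters were present in 14 of 19 mitosis genes (73.7%) and in 1 of 14 S phase genes (7.14%), against 20.2% of 27025 genes with a promoter in the table. CHR and CCAAT letters stood together in 14 mitosis genes (73.7%), against 7.97% of all genes. E2F letters were present in 6 of 14 S phase genes (42.9%) and 2 of 19 mitosis genes (10.5%), against 4.34% of all genes. CCAAT letters alone were common, in 57.1% of S phase genes, 89.5% of mitosis genes and 41.1% of all genes. These matches describe letters in a window and not bound sites.

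The 120 bases before the start of 1 S phase gene and 4 mitosis genes are shown because these genes recur in the comparisons that follow. They run 5′ to 3′ on the strand of the gene and end at the base before the start, and capitals mark the letters searched for on either strand.
Mcm6 (chr1:128359706-128359825, minus strand): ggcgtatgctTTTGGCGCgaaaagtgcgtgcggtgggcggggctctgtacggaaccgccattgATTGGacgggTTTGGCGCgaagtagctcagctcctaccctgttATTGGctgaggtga
Cdk1 (chr10:69352913-69353032, minus strand): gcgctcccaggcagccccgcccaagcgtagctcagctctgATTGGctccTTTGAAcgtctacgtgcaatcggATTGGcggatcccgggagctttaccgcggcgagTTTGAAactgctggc
Ccnb1 (chr13:100786487-100786606, minus strand): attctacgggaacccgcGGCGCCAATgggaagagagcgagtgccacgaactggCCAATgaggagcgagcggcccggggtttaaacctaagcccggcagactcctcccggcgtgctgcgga
Ccnb2 (chr9:70421555-70421674, minus strand): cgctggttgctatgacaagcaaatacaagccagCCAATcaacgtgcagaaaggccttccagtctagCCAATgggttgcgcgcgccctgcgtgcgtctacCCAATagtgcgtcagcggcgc
Top2a (chr11:99024190-99024309, minus strand): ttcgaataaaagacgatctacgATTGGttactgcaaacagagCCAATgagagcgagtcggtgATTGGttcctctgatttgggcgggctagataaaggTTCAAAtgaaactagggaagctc
Mcm6 held the E2F letters TTTGGCGC at both -110 and -47 and no CHR letters, and Cdk1 held TTTGAA at -71 and -15. Cdk1 and Ccnb1 were also the 2 mitosis genes with E2F letters, at -178, outside the stretch shown, and at -103. In Ccnb2 the stretch shown held 3 CCAAT boxes and the CHR letters lay outside it, at -167 and 5, while Ccnb1 had no CHR letters in the whole window. In Top2a the CHR letters at -23 were read on the other strand, as TTCAAA.

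Cells were sorted into classes by marker UMIs. T cells carried Cd3 transcripts and were split by Cd8a or Cd8b1 and Cd4, and T cells with neither or both kept the name other T. NK cells carried Ncr1, Klrb1c or Klre1, B cells carried B cell markers such as Cd79a, Cd79b and Ms4a1, and neutrophils had at least 5% of UMIs in granule genes. C1q macrophages carried C1qa, C1qb or C1qc, and monocytes carried Csf1r, Ms4a6c, F13a1 or Fn1 without C1q. A cell was called S positive or mitosis positive with at least 4 UMIs over at least 3 genes of the list, and cycling if it was either. Some markers left out of the rules were checked. Lck, a T cell kinase, was detected in 86.6% of WT and 90.7% of twi CD8 T cells and in 3.62% and 7.32% of B cells, and Csf3r, the receptor of granulocyte growth factor, in 49.5% and 55.0% of neutrophils and in 0.893% and 0.932% of CD8 T cells. Mpo and Elane, genes of myeloid precursors, were each detected in 21.1% of WT monocytes, and these cells are described with their class. Levels are given as CPM, UMIs scaled to the total of the class. Transcripts of other cells were also read in CD8 T cells and were higher in WT: Retnlg, a neutrophil gene, in 41.1% of WT and 12.6% of twi cells, and Hbb-bs, a haemoglobin gene, at 718 and 399 CPM. Their part in the results was not tested.

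Cycling cells were found in both genotypes and in every named class except WT C1q macrophages. Of all cells, 119 of 1271 in WT (9.36%, 7.82 to 11.1) and 212 of 1207 in twi (17.6%, 15.5 to 19.8) were called cycling, a ratio of 1.88 (1.49 to 2.37). With all UMIs the excess lay in S positive cells, 91 in WT and 181 in twi, for a ratio of 2.09 (1.62 to 2.72), whereas mitosis positive cells numbered 88 and 95, for a ratio of 1.14 (0.842 to 1.54). Depth and class sizes both moved with this difference. When each cell was thinned to 1000 UMIs and called at 2 UMIs over 2 genes, 12.7% of WT and 14.4% of twi cells were cycling, a ratio of 1.13 (0.905 to 1.42), after 106 WT and 20 twi cells under that depth were left out, and for S positive cells alone the ratio was 1.29 (0.984 to 1.69). The same call without thinning gave a ratio of 1.73 (1.5 to 1.99). When the twi shares per class were weighted by the class sizes of WT, the twi share was 11.3% and the ratio 1.20, and with thinning as well the ratio was 0.968.

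Mature neutrophils, which do not divide, were the cells that should lack these transcripts. None of 93 WT and none of 39 twi mature neutrophils were called cycling, which allows a share of up to 3.23% and 7.69%, at median depths of 1286 and 1699 UMIs. These cells were shallower than most classes, so their counts set no limit for deeper cells, and after thinning 1 of 69 WT and 0 of 38 twi mature neutrophils were called. The S phase genes together reached 72.9 CPM in the WT and 28.1 CPM in the twi mature neutrophils, and the mitosis genes 106 and 70.2 CPM. Every other named class lay above these sums in its library, except the mitosis sum of WT C1q macrophages, at 61.1 CPM.

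The classes that held the cycling cells differed between the libraries, as the classes themselves did. B cells made up 43.5% of WT and 13.6% of twi cells, and CD8 T cells 8.81% and 35.5%. Among cycling cells, B cells were 34 of 119 in WT (28.6%) and 14 of 212 in twi (6.60%), while CD8 T cells were 15.1% and 54.2%. All T classes together made up 32.8% of WT cycling cells and 76.4% of those in twi. Monocytes were 11.8% of WT cycling cells, although only 2.99% of all WT cells, and 2.36% of the twi cycling cells. By UMIs, B cells were the leading class for 39 of the 42 genes in WT, with monocytes leading for Tyms and Tk1 and CD8 T cells for Ccne1. In twi, CD8 T cells led for all 42 genes, with 27.7% to 64.8% of each gene's UMIs. The same classes held the most UMIs over all genes. B cells had 1209344 of 3741477 UMIs in WT, and CD8 T cells 2014521 of 4791200 in twi. Leading classes were not counted over all genes, so these counts do not set the 42 genes apart.

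**Figure D1:**
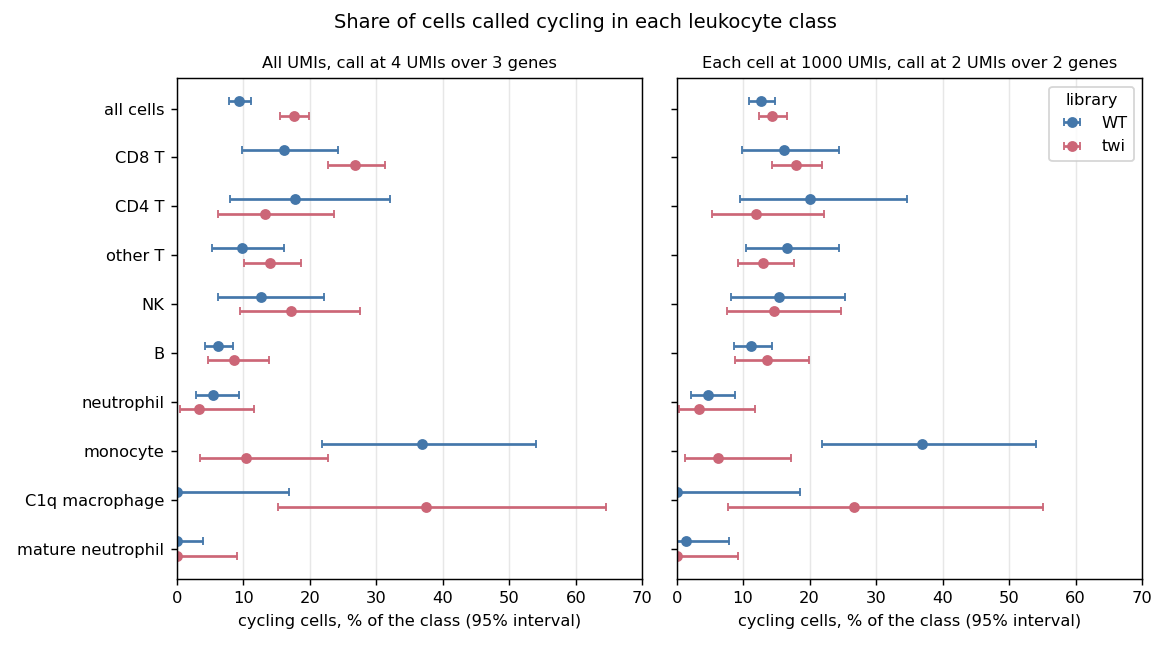
Share of cells called cycling (percent) in each class, with exact 95% intervals, for the WT and twi libraries; the left panel uses all UMIs and the right panel cells thinned to 1000 UMIs. CD8 T cells stand at 16.1% in WT and 26.8% in twi with all UMIs and at 16.2% and 17.9% after thinning, while monocytes stand at 36.8% and 10.4%.

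The genes differed in how closely their UMIs kept to the called cells, which describes the call and is no test of it. For mitosis genes the median member had 96.6% of its WT and 93.2% of its twi UMIs in called cells, and 20 and 19 of 23 members had at least 90% there. Plk1, a kinase of mitotic entry, had 100% in WT, and Cenpa, the histone variant of centromeres, had 68.9%. S phase genes were more widely spread, with a median of 79.5% and 77.4%. Among them Rrm2, the regulated subunit of ribonucleotide reductase, had 96.6% and 93.8%, whereas Pcna, which also serves DNA repair, had 68.1% and 65.3%. Smc4, a condensin subunit, had the lowest share of the mitosis genes, 53.1% in WT and 52.6% in twi. Of the genes outside the call, Stmn1, a tubulin-binding protein, had 92.0% and 92.6% of its UMIs in called cells, while Hmgb2, a chromatin protein, had 66.8% and 69.6% and was detected in 90.3% of WT and 87.2% of twi mature neutrophils.

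The order of the classes differed from gene to gene. Mki67, the proliferation antigen Ki-67, stood in WT at 101 CPM in B cells, 95.1 in monocytes, 81.6 in CD4 T cells, 44.2 in other T cells, 43.4 in CD8 T cells, 29.5 in NK cells, 18.3 in neutrophils and 0 in C1q macrophages. In twi it stood at 196 CPM in C1q macrophages, 85.0 in B cells, 67.7 in NK cells, 49.1 in CD8 T cells, 48.2 in other T cells, 42.0 in monocytes, 38.5 in CD4 T cells and 25.8 in neutrophils. The intervals of B cells (83.8 to 121 CPM) and CD8 T cells (26.5 to 67.0) were apart in WT, and in twi (59.2 to 118 and 39.9 to 59.8) they overlapped. Smc4 had another order, led in WT by CD4 T cells at 524 CPM, CD8 T cells at 436 and other T cells at 295, with B cells at 194 and NK cells at 148. Mcm6, a helicase subunit, was at 143 CPM in NK cells of both genotypes and at 15.3 and 15.5 in neutrophils.

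**Figure D2:**
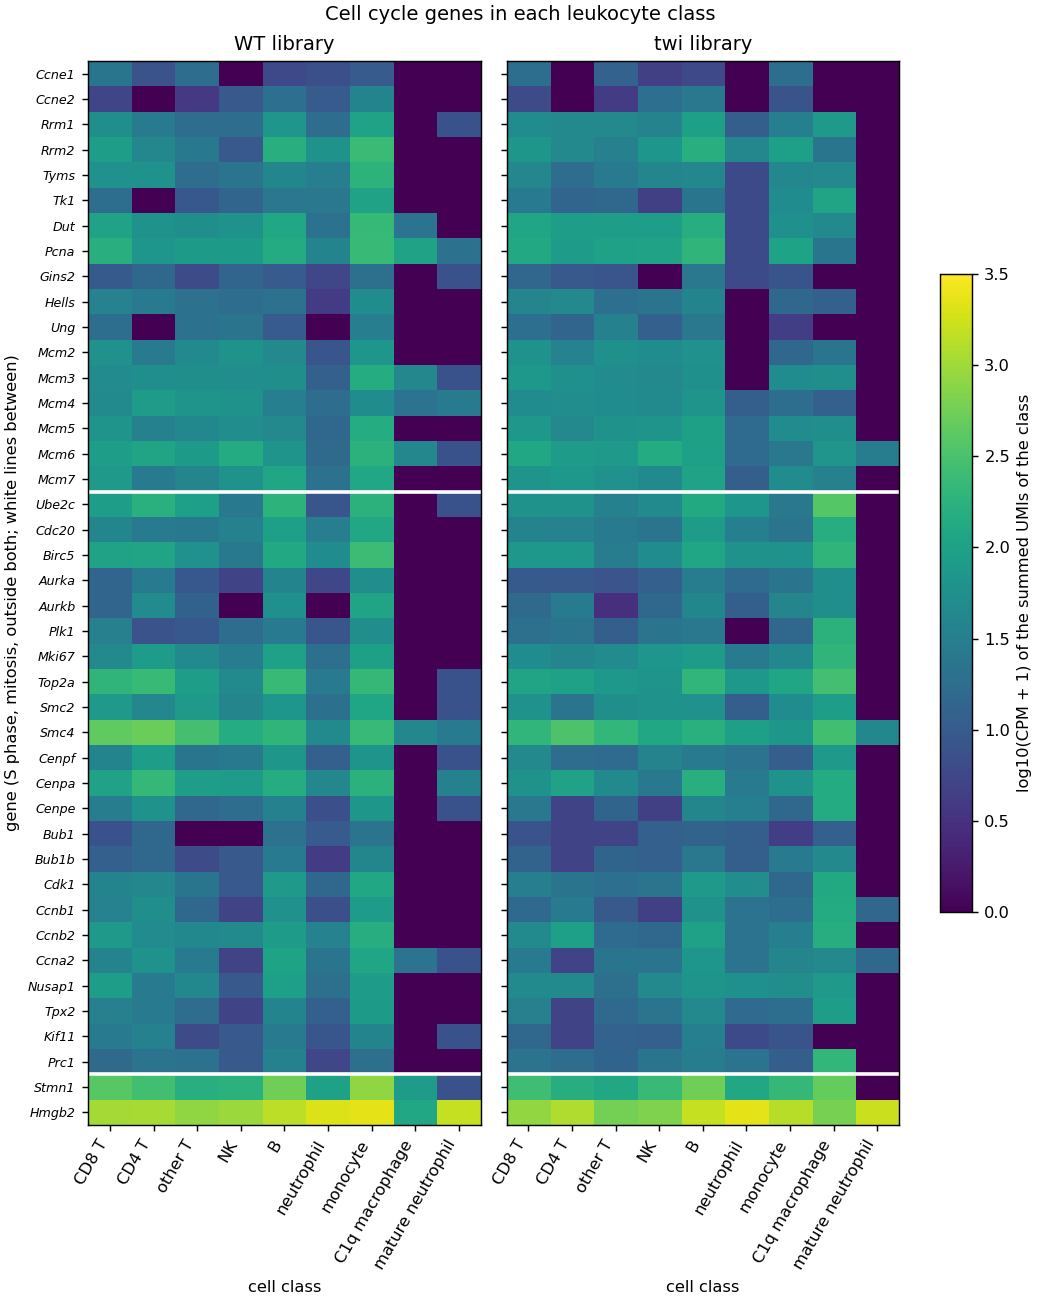
Level of each of the 42 genes in each class, as log10 of CPM plus 1, with WT and twi columns side by side; rows are grouped by list. Hmgb2 is high in neutrophils, where few cells cycle, Smc4 is highest in T cells of WT, and most mitosis genes are near 0 in WT C1q macrophages.

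In CD8 T cells, with all UMIs, the share of S positive cells was higher in twi while that of mitosis positive cells was not. Of 112 WT cells, 18 were cycling (16.1%, 9.81 to 24.2), and of 429 twi cells, 115 (26.8%, 22.7 to 31.3), a ratio of 1.67 (1.01 to 2.91). S positive cells were 13 in WT and 99 in twi, for a ratio of 1.99 (1.11 to 3.87), and mitosis positive cells 14 and 45, a ratio of 0.839 (0.452 to 1.66). Cells that were S positive alone numbered 4 and 70, a ratio of 4.57 (1.71 to 17.2). After thinning, the shares were 16.2% and 17.9%, a ratio of 1.10 (0.653 to 1.96). The ratios were then 1.31 (0.695 to 2.67) for S positive cells and 1.47 (0.685 to 3.61) for those that were S positive alone, 7.21% and 10.6% of cells. Thinning came with the looser call of 2 UMIs over 2 genes. Without thinning that call marked 54 of 112 WT and 246 of 429 twi cells as cycling, a ratio of 1.19 (0.883 to 1.63). The parts of the call and of depth in the fall from 1.67 were not tested. Not called but with at least 3 UMIs of a list were 26 of 112 WT and 67 of 429 twi CD8 T cells. Called with at most 5 UMIs were 4 of 112 and 37 of 429, so the bare counts do not compare the genotypes. The cycling cells were the deeper ones in both genotypes, with a median of 5830 against 3351 UMIs in WT and 6182 against 3706 in twi.

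**Figure D3:**
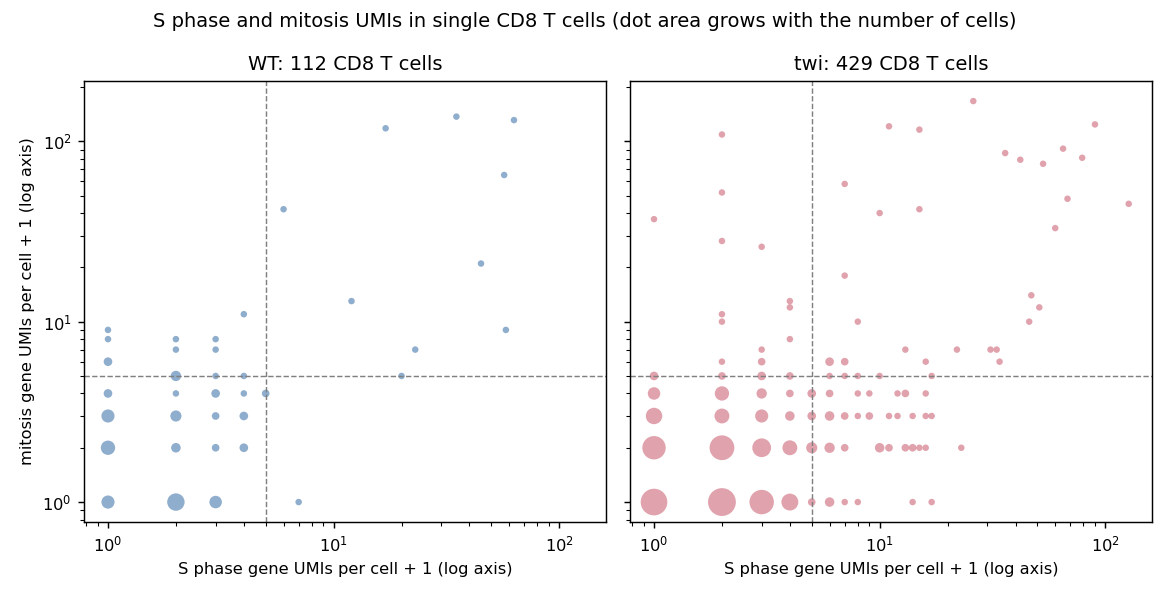
UMIs of S phase genes (horizontal) against UMIs of mitosis genes (vertical) in each CD8 T cell, plus 1, on log axes; dashed lines mark 4 UMIs. The twi panel holds many cells past the line on the S phase axis alone, and single cells reach up to 136 mitosis UMIs in WT and 166 in twi.

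Summed over the class, the S phase genes of CD8 T cells were level between genotypes, at 950 CPM (863 to 1043) in WT and 965 CPM (923 to 1009) in twi, for a ratio of 1.02 (0.916 to 1.13). The mitosis genes were lower in twi, at 1011 CPM (968 to 1056) against 1565 CPM (1453 to 1684), a ratio of 0.646 (0.593 to 0.704). Few cells carried much of each sum. In WT and twi, 10 cells held 75.6% and 51.0% of mitosis UMIs, and 74.7% and 34.8% of S phase UMIs. As 10 cells are a larger part of 112 WT than of 429 twi cells, these shares do not compare the genotypes. Because the UMIs of 1 cell come together, the counting intervals of sums are too narrow as statements about cells. Within called cells the mitosis genes were at 4456 CPM in WT and 2224 in twi, and the S phase genes at 2718 and 2024. These cells were called by UMIs of the same lists, and 4 of 18 in WT and 70 of 115 in twi were S positive alone. The values in called cells therefore partly follow from the call and do not compare dividing cells. In the remaining CD8 T cells the mitosis genes were at 451 and 238 CPM, a ratio of 0.529 (0.433 to 0.648). Without Smc4 they were at 87.1 CPM in WT and 97.5 in twi, for a ratio of 1.12 (0.741 to 1.74), and the S phase genes at 267 and 291.

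Member by member, on the log2 scale with a pseudocount of 0.5 UMI, 10 S phase genes were higher and 7 lower in twi CD8 T cells, with a median of 0.07, equal to the median of 0.07 over 8939 genes with at least 10 UMIs. Of the 23 mitosis genes, 5 were higher and 18 lower, with a median of -0.49. No S phase gene differed by 2-fold. Of the mitosis genes 2 were at least 2-fold lower, Smc4 and Ccnb1, and 0 were at least 2-fold higher, while 5.05% of all genes in these cells were at least 2-fold lower and 9.45% at least 2-fold higher. The count of members past 2-fold was thus close to the background, and the lists differed mainly in the direction of changes under 2-fold.

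The replicative helicase is a ring of 6 Mcm proteins, all of them members. Mcm6 had 41 UMIs in WT and 246 UMIs in the twi CD8 T cells, 88.9 and 122 CPM, a ratio of 1.37 (0.984 to 1.96), and was detected in 24.1% and 29.4% of cells. Mcm3 had 22 and 145 UMIs, 47.7 and 72.0 CPM, a ratio of 1.51 (0.96 to 2.48). Mcm2 and Mcm4 had ratios of 1.02 and 1.09, Mcm5 1.17 and Mcm7 0.869. Of these 6 genes 5 had ratios above 1, and every interval included 1. Mcm2 was detected in 8.04% of WT and 17.0% of twi cells although its CPM was nearly equal, 58.5 and 59.6, so its UMIs were spread over more of the twi cells.

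The genes of nucleotide supply did not move together. Rrm2 had 42 UMIs in WT and 141 UMIs in the twi cells, a ratio of 0.769 (0.541 to 1.11), and Rrm1, the other subunit of the reductase, had a ratio of 0.898. Tyms, thymidylate synthase, was at 58.5 and 40.7 CPM, a ratio of 0.695 (0.445 to 1.12), and Tk1, thymidine kinase, at 17.3 and 27.8 CPM, a ratio of 1.60 (0.76 to 3.89). Dut, which clears dUTP, was at 102 and 113 CPM. Their intervals all included 1. At the replication fork Pcna had 75 and 266 UMIs, 163 and 132 CPM, a ratio of 0.812 (0.626 to 1.06), Gins2, a helicase cofactor, had 4 and 27 UMIs, and Hells, a chromatin remodeller, and Ung, the uracil glycosylase of DNA repair, had ratios of 1.10 and 1.03. The cyclins that open S phase were scarce, with 10 and 35 UMIs of Ccne1 and 2 and 11 of Ccne2.

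All 4 genes of the mitotic cyclin group were lower in twi CD8 T cells. Ccnb1 had 16 UMIs in 2.68% of WT cells and 30 UMIs in 3.03% of twi cells, 34.7 and 14.9 CPM, a ratio of 0.429 (0.227 to 0.843). Ccnb2 had 34 and 94 UMIs, a ratio of 0.633 (0.424 to 0.967). Ccna2, which acts in both S phase and G2, and Cdk1, the kinase these cyclins activate, had ratios of 0.727 and 0.862 with intervals that included 1. The share of cells with Ccnb1 hardly differed while the UMIs did, as in Ccnb2, which was detected in 6.25% and 6.29% of cells.

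Among genes of chromosome structure Top2a, the topoisomerase that untangles DNA before division, had 89 and 223 UMIs, 193 and 111 CPM, a ratio of 0.574 (0.447 to 0.742), but was detected in 11.6% of WT and 15.9% of twi cells. Mki67 was at 43.4 and 49.1 CPM, a ratio of 1.13 (0.696 to 1.94), in 8.04% and 9.09% of cells. Smc2, the partner of Smc4 in condensin, had a ratio of 0.815 (0.553 to 1.23). Smc4 stood apart: it had 201 UMIs in WT and 400 UMIs in the twi cells, 436 and 199 CPM, a ratio of 0.456 (0.384 to 0.543), and was detected in 62.5% of WT and 44.5% of twi cells.

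Many Smc4 UMIs in these cells lay outside called cells, 121 of 201 in WT and 173 of 400 in twi. In CD8 T cells that were not called, Smc4 was at 363 CPM (302 to 434) in WT and 141 CPM (120 to 163) in twi. It was higher in the cells with Ccr7, the lymph node homing receptor of naive and central memory T cells, at 396 CPM in WT and 225 in twi, than in those without it, at 296 and 107 CPM. The naive T cell genes differed in the same direction: Ccr7, Lef1 and Tcf7 had ratios of 0.333, 0.406 and 0.436 in twi over WT CD8 T cells, and their part in the Smc4 values was not tested. Within cells without Ccr7, 35 in WT and 231 in twi, the counting intervals were 202 to 417 CPM and 86.4 to 131 CPM. A cell without a Ccr7 UMI can still be naive. Among WT cells that were not called, Ccr7 was detected in 62.8% and Tcf7 in 76.6%. The split by Ccr7 therefore does not part naive cells from others. Without Smc4 the mitosis sum of CD8 T cells was 1129 CPM in WT and 813 in twi, for a ratio of 0.719 (0.652 to 0.796).

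Of the spindle genes, Nusap1, a microtubule-binding protein, had 41 and 93 UMIs, a ratio of 0.519 (0.356 to 0.769), and Kif11, the motor that separates spindle poles, a ratio of 0.515 (0.252 to 1.12). Tpx2, which activates Aurora A, was level at 32.5 and 32.3 CPM, and Prc1, which bundles the midzone, had 7 and 41 UMIs, a ratio of 1.34 (0.596 to 3.54). The kinase and passenger group ran from 0.58 for Plk1 to 1.18 for Aurkb, with Birc5 (survivin) at 104 and 71.5 CPM, a ratio of 0.687 (0.492 to 0.973), and Aurka at 6 and 18 UMIs. Of the kinetochore and checkpoint genes Cenpa had 47 and 125 UMIs, a ratio of 0.609 (0.432 to 0.871), while Cenpf, Cenpe, Bub1 and Bub1b had ratios of 1.19, 0.845, 1.07 and 1.10. Ube2c and Cdc20, parts of the anaphase promoting system, had ratios of 0.687 (0.479 to 1.00) and 0.929 (0.549 to 1.65).

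In all, 7 of the 23 mitosis genes had a counting interval wholly below 1 and 0 had one wholly above. Of all 8939 genes, 5.09% and 7.06% did. None of the 17 S phase genes had an interval that left out 1. The UMIs of the mitosis genes came largely from the same few cells. These genes are therefore not separate observations, and their counting intervals are too narrow. Stmn1 had 182 and 544 UMIs in CD8 T cells, a ratio of 0.684 (0.578 to 0.814), and Hmgb2 494 and 1733, a ratio of 0.803 (0.726 to 0.89). The median of the mitosis genes moved with few cells, while their sum with Smc4 stayed lower. In CD8 T cells that were not called, Smc4 held 121 of 150 mitosis UMIs in WT and 173 of 293 in twi. Without it the ratio there was 1.12 (0.741 to 1.74). Cells with at least 4 UMIs over at least 3 mitosis genes were left out by the call, which partly sets these values. With the 1% of cells that had the most UMIs of the list left out of each library, the median of the mitosis genes was -0.29, and with 5% left out it was -0.17 over the 10 members that kept enough UMIs. The log2 ratio of the sum, Smc4 included, then had intervals of -0.72 to -0.41 and -0.996 to -0.533, against -0.75 to -0.51 with all cells. The S phase median moved up to 0.23 and 0.48 in the same way. The 1% left out was 2 WT and 5 twi cells, and the 5% was 6 and 22 cells. They were chosen by UMIs of the list compared, while 18 WT and 115 twi cells were cycling. The shifts of both medians therefore partly follow from that choice. In cells with Y-linked transcripts and no Xist, 51 in WT and 58 in twi, the medians were -0.14 for the S phase genes and -1.59 for the mitosis genes.

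**Figure D4:**
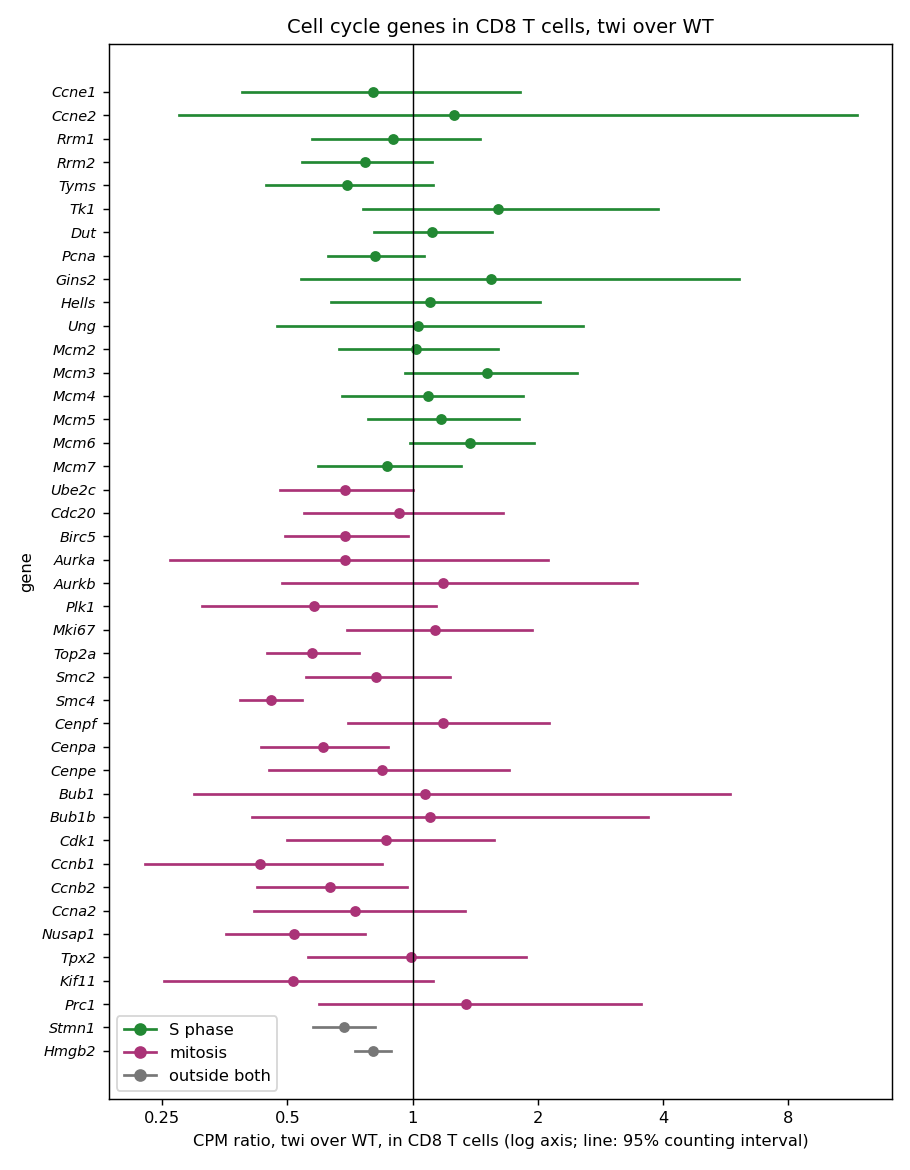
Ratio of CPM in twi over WT CD8 T cells for each gene on a log axis, with exact 95% counting intervals, grouped by list. S phase genes lie on both sides of 1 and most mitosis genes lie below it, with Ccnb1 (0.429) and Smc4 (0.456) lowest.

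Cell cycle genes beyond the 42 were described from fixed lists by the genes with the most UMIs in CD8 T cells. The median over 15 further replication genes was 0.13 on the log2 scale, and over 20 further mitosis genes -0.38, with 5 higher and 15 lower. Slbp, which binds histone mRNA, had a ratio of 1.13 (0.88 to 1.46), Rfc2 of the clamp loader 1.11, Rpa2 of the single-strand binding complex 0.866 and Lig1, DNA ligase I, 2.01 (1.13 to 3.89). Tubb4b, a tubulin, was at 0.664 (0.522 to 0.853), H2afx, a histone variant, at 0.735 (0.561 to 0.974), Cks2, a Cdk1 partner, at 1.02 and Racgap1, of cytokinesis, at 0.658. Of genes that act in G1 or hold cells at rest, Klf2, a quiescence factor of T cells, was at 1700 CPM in WT and 792 in twi, for a ratio of 0.466 (0.428 to 0.508), and Ccnd2, a G1 cyclin, was at 377 and 521 CPM, a ratio of 1.38 (1.18 to 1.63). Btg1 and Btg2, which restrain proliferation, had ratios of 1.02 and 1.06. Of 7 E2F and mitotic transcription factors with enough UMIs, 3 were higher and 4 lower, with E2f4 at 1.87 (1.14 to 3.24) and E2f2 at 0.389 (0.168 to 0.951).

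Cycling CD8 T cells were compared with the remaining CD8 T cells of the same library for genes that took no part in the call. Stmn1 was 28.9-fold higher in WT (17.0 to 52.7) and 32.6-fold in twi (21.8 to 50.8), and Hmgb2 9.61-fold and 5.90-fold. The naive genes had ratios below 1 in cycling cells, 0.454 in WT and 0.394 in twi for Ccr7, 0.458 and 0.49 for Lef1, and 0.733 (0.50 to 1.05) and 0.538 for Tcf7, yet Ccr7 was detected in 55.6% of WT cycling cells. Btg1 had ratios of 0.504 and 0.571, Btg2 0.368 and 0.479 and Klf2 0.66 and 0.661, so these 3 genes of quiescence were lower in cycling cells of both genotypes. The effector genes gave no single direction. Gzmb, granzyme B, was at 312 against 27.0 CPM in WT and 497 against 319 CPM in twi, Nkg7 had ratios of 1.56 and 0.995, Ccl5 0.506 and 0.767, and Cxcr6 1.48 and 0.801. Gzmb was detected in 16.7% of WT and 44.3% of twi cycling CD8 T cells. Of the E2F factors, E2f4 had ratios of 1.30 (0.399 to 3.73) in WT and 1.31 (0.935 to 1.84) in twi, E2f2 6.05 (1.38 to 36.3) and 5.10 (1.58 to 21.5), and E2f1 5.19 (0.743 to 57.3) on 4 and 2 UMIs in WT and 29.8 (7.70 to 255) on 38 and 2 UMIs in twi.

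The other T and NK classes had fewer cycling cells and wide intervals. CD4 T cells were cycling in 8 of 45 WT (17.8%) and 9 of 68 twi cells (13.2%), a ratio of 0.744 (0.255 to 2.22), other T cells in 13 of 133 (9.77%) and 38 of 272 (14.0%), a ratio of 1.43 (0.745 to 2.92), and NK cells in 10 of 79 (12.7%) and 13 of 76 (17.1%), a ratio of 1.35 (0.547 to 3.44). After thinning the 3 ratios were 0.597, 0.79 and 0.953. The mitosis sum was lower in twi in CD4 T cells, 1952 CPM in WT, with a ratio of 0.545 (0.458 to 0.648), and in other T cells, 1029 CPM in WT, with a ratio of 0.678 (0.597 to 0.772). In NK cells it was 595 and 720 CPM, a ratio of 1.21 (0.971 to 1.51). The S phase sum was 1.09, 1.22 and 1.15 times the WT level in these classes. In CD4 T cells Smc4 was at 524 and 333 CPM, a ratio of 0.637 (0.459 to 0.884), and Top2a had 33 and 23 UMIs, a ratio of 0.438 (0.246 to 0.769). Cycling NK cells carried the killer cell genes: Nkg7 had ratios of 0.797 in WT and 0.816 in twi against other NK cells and Gzmb 0.99 and 1.11, while Ccl5, a chemokine, had 0.37 and 0.367.

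In B cells most S phase genes were higher and most mitosis genes lower in twi. Cycling B cells were 34 of 553 in WT (6.15%, 4.30 to 8.49) and 14 of 164 in twi (8.54%, 4.75 to 13.9), a ratio of 1.39 (0.688 to 2.66), or 1.21 after thinning. S positive cells were 27 in WT and 8 in twi, 4.88% in each. Mitosis positive cells were 29 of 553 and 14 of 164, a ratio of shares of 1.63 (0.795 to 3.18). A lower share of mitosis positive cells in twi was thus not seen, but the interval is wide and includes 1. The S phase sum was 966 CPM in WT and 1242 in twi, for a ratio of 1.29 (1.16 to 1.43), and the mitosis sum 1943 and 1669 CPM, a ratio of 0.859 (0.788 to 0.936). Of 16 S phase genes with at least 10 UMIs, 13 were higher and 3 lower, with a median of 0.46 on the log2 scale against -0.03 over 8591 genes, and 4 of them, Mcm4, Mcm5, Gins2 and Ung, were at least 2-fold higher, where 4.14% of all genes were. Of 23 mitosis genes, 6 were higher and 17 lower, with a median of -0.20, and 1, Cenpf, was at least 2-fold lower, where 6.41% of all genes were. Of 15 further replication genes, 14 were higher and 1 lower, with a median of 0.39.

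Mcm5 had 53 UMIs in WT and 40 UMIs in the twi B cells, 43.8 and 97.2 CPM, a ratio of 2.22 (1.43 to 3.41), and Mcm4 38 and 26 UMIs, a ratio of 2.01 (1.17 to 3.40). Gins2 and Ung had 11 and 10 UMIs each, a ratio of 2.67 (1.02 to 6.93). Rrm2 and Mcm7 had ratios of 0.979 and 0.875. Of the mitosis genes, Cenpf, a kinetochore protein, had 84 and 11 UMIs, a ratio of 0.385 (0.185 to 0.724), Ccna2 127 and 28, a ratio of 0.648 (0.414 to 0.981), and Ube2c 222 and 55, a ratio of 0.728 (0.532 to 0.982). Ccnb1 and Ccnb2, which were lower in twi CD8 T cells, had ratios of 1.03 and 1.16 here. The UMIs came from few cells: 10 twi B cells held 77.5% of the S phase and 82.5% of the mitosis UMIs. The genes of a list are therefore not separate observations here.

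Cycling B cells differed from the remaining B cells in genes of B cell maturity that took no part in calling cycling cells. Ms4a1, which encodes CD20 and is raised in mature B cells and is also 1 of the class markers, was at 221 CPM in cycling and 2666 CPM in other WT B cells, a ratio of 0.083 (0.0604 to 0.111), and at 294 against 2901 CPM in twi, for a ratio of 0.101. It was detected in 17.6% of cycling and 68.2% of other WT B cells. Cd74, the invariant chain of MHC class II, had ratios of 0.151 and 0.134, and H2-Aa, an MHC class II chain, 0.273 and 0.205. Of the early B genes with the most UMIs, Ebf1, the lineage factor, was at 0.636 and 0.764 and Vpreb3 at 1.06 and 1.31, whereas Igll1, part of the surrogate light chain of pre-B cells, was at 5.75 (4.10 to 8.07) and 8.33 (4.46 to 16.2) and Il7r, the receptor of a precursor growth factor, at 2.05 and 1.39. Il7r was detected in 70.6% of cycling and 14.5% of other WT B cells. Igll1 was detected in only 5 of 34 WT (14.7%) and 5 of 14 twi (35.7%) cycling B cells, so its ratios rest on few cells.

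The following early B genes were picked after their values were seen. Vpreb1, the partner of Igll1, had ratios of 4.47 in WT and 9.84 in twi, and was detected in 6 of 34 and 5 of 14 cycling cells. Dntt, the terminal transferase of heavy chain rearrangement, was at 12.8 (8.44 to 19.9) and 19.4 (7.25 to 65.0), with 83 of its 115 WT UMIs in cycling cells but in 5.88% of those cells. In each library 2 cycling cells carried it. The recombinase genes differed from each other. Rag2 was at 2.12 (1.15 to 3.76) and 8.08 (2.16 to 36.6), and Rag1 at 0.383 (0.187 to 0.707) and 0.288 (0.00682 to 1.90). Ccnd3, the D-type cyclin of pre-B cells, was 3.66-fold and 4.61-fold higher in cycling cells, and Btg1 and Klf2 were lower, with ratios of 0.256 and 0.304 in WT. Stmn1 and Hmgb2 were 59.1-fold and 26.0-fold higher in WT and 96.9-fold and 33.8-fold in twi.

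**Figure D5:**
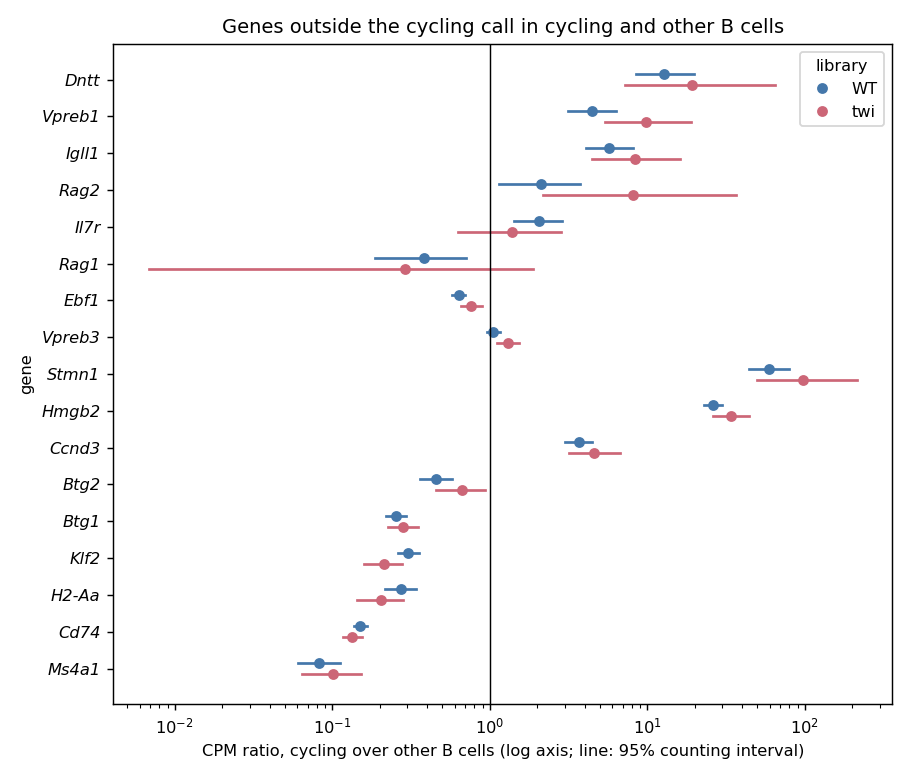
Ratio of CPM in cycling over other B cells, on a log axis with exact 95% counting intervals, for genes outside the call, in WT and twi. Stmn1, Hmgb2 and the early B genes Dntt, Vpreb1 and Igll1 lie above 1 and Ms4a1, Cd74 and H2-Aa below it in both libraries.

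In neutrophils the called cells all carried secondary granule transcripts. Cycling neutrophils were 12 of 220 in WT (5.45%) and 2 of 60 in twi (3.33%). All were among those with at least 1% of UMIs in Ngp, Camp, Ltf, Elane, Mpo and Prtn3, 12 of 127 and 2 of 21. Of the mature ones, which lay under that limit, 0 were cycling. Against other neutrophils, cycling ones had more Camp and Ngp, granule proteins of the myelocyte stage that also helped to define the class, with ratios of 2.51 and 2.52 in WT and 3.56 and 2.16 in twi. The other neutrophils included all the mature ones, which were defined by few UMIs of these genes. Ratios above 1 were therefore partly set by that definition. The twi values rest on 2 cycling cells. Genes of the primary granules of earlier precursors were at 169 CPM in cycling and 18.0 CPM in other WT neutrophils, a ratio of 9.39 (4.06 to 22.9). They were read in 4 of the 12 cycling cells. Prtn3 gave 11 of the 17 UMIs in cycling cells, while Mpo had 0 there and 5 in other WT neutrophils. In twi neither the 2 cycling nor the 58 other neutrophils had a UMI of these genes. Of the primary granule genes, Elane, Mpo and Prtn3 were also part of the 1% limit. The mitosis sum was 395 CPM in WT and 702 in twi and the S phase sum 298 and 129 CPM. In twi a single cell held 95 of the 136 mitosis UMIs. Hmgb2 was at 1544 CPM in mature WT neutrophils, where Stmn1 had 1 UMI.

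Monocytes had low ratios of both lists, twi over WT, but part of the WT cells did not bear the class name. Cycling monocytes were 14 of 38 in WT (36.8%, 21.8 to 54.0) and 5 of 48 in twi (10.4%, 3.47 to 22.7), a ratio of 0.283 (0.0797 to 0.831) and 0.17 (0.0313 to 0.608) after thinning. The S phase sum was 1940 CPM in WT and 630 in twi, and the mitosis sum 2486 and 757 CPM. All 15 S phase genes and 18 of 21 mitosis genes with at least 10 UMIs were at least 2-fold lower in twi, where 13.5% of 6056 genes were, and 0 were at least 2-fold higher, where 6.49% of all genes were. The UMIs of a cell come together and only 14 and 5 cells were cycling, so these genes are not separate observations. Mcm6 had 57 and 7 UMIs, a ratio of 0.14 (0.0539 to 0.308), Cdk1 40 and 4, a ratio of 0.114 (0.0297 to 0.316), and Ube2c 57 and 7.

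Part of these cells did not look like plain monocytes. Cycling WT monocytes held 688 UMIs of Mpo, 368 of Prtn3, 297 of Elane and 222 of Ctsg, proteins of the primary granules of myeloid precursors, against 1, 1, 0 and 0 in the 24 other WT monocytes. Of the cycling cells, 7 of 14 in WT and 1 of 5 in twi carried at least 10 UMIs of these 4 genes, and 0 of the other monocytes did. At least 1 such UMI was read in 12 of 14 WT and 4 of 5 twi cycling monocytes, against 8.33% and 4.65% of the others. The 7 WT cells with at least 10 had a median of 19831 UMIs. The class name therefore did not hold for these cells, which are described by their granule genes. Without them, 7 of 31 WT (22.6%, 9.59 to 41.1) and 4 of 47 twi monocytes (8.51%, 2.37 to 20.4) were cycling, a ratio of 0.377 (0.0809 to 1.48), or 0.188 (0.0191 to 0.99) after thinning. The S phase sum without them was 896 CPM in WT and 537 CPM in twi cells, with a ratio of 0.599 (0.477 to 0.751) in place of 0.325 and above the 0.433 of neutrophils, while the mitosis sum was 2387 and 673 CPM, a ratio of 0.282 (0.236 to 0.335) beside 0.304. Of the genes with at least 10 UMIs, 3 of 10 S phase genes and 14 of 19 mitosis genes were then at least 2-fold lower in twi, where 9.79% of 5117 genes were, and 0 were at least 2-fold higher, where 5.49% were. With 7 and 4 cycling cells, these genes too are not separate observations. Mcm6 had 16 and 2 UMIs, Cdk1 17 and 4, and Ube2c 47 and 6. The cycling monocytes were also far deeper than the others, with a median of 14627 against 5101 UMIs in WT, and the part of doublets in this was not tested.

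C1q macrophages moved the other way on few cells. None of 20 WT cells were cycling, which by a floor of 3 counts allows a share of up to 15% and by the exact interval up to 16.8%, and 6 of 16 twi cells were (37.5%, 15.2 to 64.6). The twi share was 2.5-fold the floor, and the exact lower limit of the ratio was 1.47, or 0.792 after thinning. After thinning the counts were 0 of 18 and 4 of 15. The mitosis genes had 3 UMIs in WT and 285 UMIs in the twi cells, 50.8 times the WT level (17.2 to 248), and the S phase genes 11 and 52, a ratio of 2.53 (1.30 to 5.37). Among them, 3 cells held most of the mitosis UMIs, 96, 84 and 85, and the other 3 had 0, 12 and 2. The 3 leading cells carried 371, 174 and 244 C1q UMIs, 25, 20 and 23 UMIs of Cx3cr1, the fractalkine receptor of microglia, and 13, 33 and 29 of the microglial genes Tmem119 and P2ry12. The other 3 carried 0, 1 and 15 UMIs of Cx3cr1 and 1, 4 and 18 of Tmem119 and P2ry12. Mrc1 and Pf4, genes of border macrophages, were at 0 in all 6, and Cd3 UMIs numbered at most 1. In the whole class Pf4 was at 0 in both libraries and Mrc1 had 0 UMIs in WT and 4 in twi. Their absence from the 6 cells therefore says little. Tmem119 or P2ry12 was detected in 19 of 20 WT cells and in 6 of 10 twi cells that were not cycling.

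Cells with Y-linked transcripts and no Xist gave a comparison between genotypes within 1 sex. Among such CD8 T cells, 11 of 51 in WT (21.6%) and 13 of 58 in twi (22.4%) were S positive, and 9 (17.6%) and 8 (13.8%) were mitosis positive. The twi CD8 T cells with Xist and no Y-linked transcripts, 245 with a median of 4701 UMIs, were S positive in 24.9% and mitosis positive in 9.80%. Over all cells with Y-linked transcripts and no Xist, the cycling shares were 13.8% in WT and 18.4% in twi, for a ratio of 1.33 (0.872 to 2.02). A higher S positive share of twi CD8 T cells was not detectable in this subset, whose intervals, 11.3% to 35.3% and 12.5% to 35.3%, are wide. The subset kept 51 of 112 WT CD8 T cells, and the 61 left out were S positive in 2 (3.28%). In twi, 25 of 126 CD8 T cells with neither or both kinds of transcript were S positive (19.8%). The comparison therefore depended on which WT cells were kept. Over all WT cells, 13.8% of those kept and 6.63% of those left out were cycling.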

How the data were processed

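Single-cell libraries of sorted CD45+ brain cells were analysed, 1 pooled library per genotype. The authors made the deposited counts with Cell Ranger 2.1.1 against mm10 (per the submitters' processing notes), so each value is a whole number of UMIs per gene and barcode of barcodes called as cells, and no normalized values were used. The methods of the study state a limit of 15% mitochondrial UMIs, which was applied here. Groups came from the genotype labels.

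Counts were summed per library and class and given as CPM of all UMIs in the class, with exact Poisson, binomial (Clopper-Pearson) or conditional 95% intervals; with 1 library per genotype no p-value was computed. PCR and capture make intervals and floors (3 counts for a count of 0) cover counting error only. Member ratios on the log2 scale used a pseudocount of 0.5 and genes with at least 10 UMIs over both libraries, and the background was the share of all such genes past 2-fold. Cells below 1000 UMIs were left out of thinned values (random seed 1). Minimum marker UMIs were 2 for T, 2 for NK, 4 for B, 3 for C1q and 2 for monocytes. A class for gamma-delta T cells had been planned, but the T cell receptor genes it needs were not in the gene list used here, so it held 0 cells and any such cells fell in other T. Barcodes that met 2 classes were kept apart as mixed. Scrublet (scanpy 1.11.5) called 8 WT (0.629%) and 6 twi (0.497%) doublets, which were kept. In twi this is near the level at which a caller cannot be relied on, so the calls say little about doublets. Python 3.11.15, numpy 2.4.6, scipy 1.17.1 and pandas 2.3.3 were used, and the scripts were tested on simulated data.

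All members were named, and of other lists the 4 genes with the most UMIs in the class, except where the text says otherwise. Some of these genes are not reported here. The members, lists and thresholds were chosen with earlier results of these data known. Promoters came from RefSeq tables of GRCm38.p6.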

Additional observations from a re-analysis of the deposited data

Results flagged for a closer look

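The cycling share differed in opposite directions between classes of the same contrast, twi over WT. It was higher in CD8 T cells, with a ratio of 1.67 (1.01 to 2.91), or 1.10 (0.653 to 1.96) after thinning. In C1q macrophages the twi share was 2.5-fold the WT floor of 3 counts. The exact lower limit of their ratio was 1.47, and after thinning it lay below 1. The cycling share was lower in monocytes, at 0.283 (0.0797 to 0.831), or 0.377 (0.0809 to 1.48) without the cells that carried at least 10 UMIs of precursor transcripts. These differences between classes were not tested, since each genotype was 1 library, and they rest on 18 and 115, 0 and 6, and 14 and 5 cycling cells.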

How the results depend on the processing

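No paired analysis was possible because each genotype was 1 library, and for the same reason no replicate could be left out. For the cycling share of all cells, 7 of 12 alternatives stayed within the counting interval of the ratio 1.88, and it moved to 1.48 with a call at 8 UMIs over 5 genes, 1.13 after thinning, 1.14 with mitosis genes only, 1.33 in cells with Y-linked transcripts and no Xist, and 1.20 with the class sizes of WT. The CD8 T share kept its direction in 11 of 12 alternatives and turned to 0.839 with mitosis genes only; over the 12 it ran from 0.839 to 1.99, and the interval included 1 in 8 of them, against 1.01 to 2.91 in the value reported. The B cell ratio ranged from 0.999 to 1.63 over 12 alternatives, within its interval. The neutrophil ratio fell to 0 with looser class minimums and again to 0 in cells with Y-linked transcripts and no Xist, where 0 twi cells were cycling. In CD8 T cells the S phase median of 0.07 moved to 0.26 as UMIs per cell, 0.54 after thinning, -0.14 in cells with Y-linked transcripts and no Xist, and 0.23 and 0.48 without the 1% and 5% of cells richest in the list. The mitosis median of -0.49 moved to -0.76 with looser class minimums, -0.30 as UMIs per cell, -0.63 after thinning, -1.59 in cells with Y-linked transcripts and no Xist, and -0.29 and -0.17 without the richest 1% and 5%. It stayed below 0 in all 14 alternatives. The causes of these shifts were not tested. The weighting by class sizes and the values without Smc4 were chosen after seeing the data. So were those without the richest cells or the monocytes with at least 10 UMIs of precursor transcripts. In classes with under 20 cycling cells in a library the intervals of the ratios are wide.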

Other observations

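Barcodes that met the marker rules of more than 1 class were cycling in 7 of 25 cases in WT and 6 of 30 in twi. In WT, 3 of the 4 with B and monocyte markers were cycling, at a median of 27509 UMIs, and in twi 3 of the 7 with T and B markers were, at a median of 5622 UMIs. Barcodes that met none were cycling in 3 of 46 and 4 of 44.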
